A study of Equus caballus with 13 samples.

Results

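The genes described here are the translation factors and aminoacyl-tRNA synthetases of horse chondrocytes, the resident cells of cartilage. They were taken by a rule on names, which was set with earlier results of these data known. It covered gene symbols beginning with EIF1 to EIF6, EEF1 or EEF2, and the release factors ETF1 and GSPT1. EPRS1 and symbols made of 1 letter followed by ARS, ARS1 or ARS2 were also taken. The rule found 92 genes, all listed in both deposited tables, out of 11056 genes in the table for age and 11249 in the table for sex (10974 in both). By class they were 48 initiation genes, 10 elongation and termination genes, 18 cytosolic synthetases and 16 mitochondrial synthetases. The name rule also takes in genes that act on the factors, such as the eIF2 kinases (EIF2AK1 to EIF2AK4), the eIF4E-binding proteins (EIF4EBP1 and EIF4EBP2) and the eEF2 kinase EEF2K, and these stay in the class of the factor they act on. FARSA and FARSB, the subunits of the cytosolic phenylalanyl-tRNA synthetase, fall outside it.

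The samples were wild-type chondrocytes isolated from cartilage, in 5 samples labelled old female, 5 labelled young female and 3 labelled young male, all exposed to 4-thiouridine (4sU) for 4 h after 2 days in culture. 4sU is a uridine analogue that marks the RNA made during the exposure, so that new and old RNA can be told apart and a synthesis rate and a half-life can be estimated for each gene. Each table gave 1 synthesis rate and 1 half-life per gene and group, so no replicate error, test or depth accompanies any value here, and every difference is described by its size. Half-lives were read as hours and synthesis rates as arbitrary units, which are compared between groups for the same gene and not between genes. The labels state no ages in years and do not say whether each sample came from a separate animal. They gave 12 batch labels for the 13 samples, with samples of 2 groups sharing only batch 10, so batch and group cannot be told apart.

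Translation begins when eIF2 brings the initiator tRNA to the small ribosomal subunit and eIF4F, made of the cap-binding protein eIF4E, the scaffold eIF4G and the helicase eIF4A, recruits the mRNA, with eIF3 bridging the subunit and the mRNA. eEF1A and eEF2 then drive elongation on tRNAs that the synthetases have charged with amino acids, with mostly separate enzymes for the cytosol and for mitochondria; GARS1 and KARS1, counted here as cytosolic, each encode both forms. Phosphorylation of eIF2 by its kinases lowers general translation and raises that of the transcription factor ATF4, whose known targets include many cytosolic synthetase genes, amino acid transporters and EIF4EBP1. The mRNAs of elongation factors and several eIF3 subunits are known, like those of ribosomal proteins, to carry a pyrimidine tract at the start that couples their translation and stability to growth signals.

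The labelled cell type was checked against marker genes. All 12 chondrocyte markers examined (SOX9, ACAN, COL2A1 and others) had values in both tables, as had 7 of 8 fibroblast and synovial lining markers, 3 of 5 osteoblast markers, and 1 each of the endothelial (VWF), leukocyte (CD14) and muscle (DES) markers. The implied level of a gene (the product of its synthesis rate and half-life over ln 2) was summed over each list, in units of 1000. Such a sum is weighted towards the genes with the highest levels, and is compared here only between groups for the same list. In the age table the chondrocyte sum was 1908 for young female cells and 1738 for old ones, and the fibroblast sum 315 and 520. Single markers did not all follow their sum: DCN (log2 level ratio 1.35) and LUM (2.98) were higher in old cells, while the other 5 fibroblast markers with values were lower, from −0.60 for PDGFRA to −2.86 for COL1A1. Of the chondrocyte markers 7 of 12 were lower in level in old cells, beside 49.3% of all genes, with a median over the 12 of −0.20. Among these 7 were COL2A1 (−0.63), ACAN (−0.48) and HAPLN1 (−1.01). The other 5 were higher, with COMP the highest (0.83). In the sex table the chondrocyte sum was 1822 for female and 4604 for male cells, and the fibroblast sum 300.3 and 777. In male cells 11 of 12 chondrocyte markers were higher, with a median log2 level ratio of 1.55. Of the fibroblast markers 6 of 7 were higher, with a median of 1.39, beside 50.5% of all genes that were higher. The fibroblast markers ranged from PDGFRA, 1.64-fold lower, to COL1A2 and COL1A1, 10.5- and 18.3-fold higher. The osteoblast sum was 4.35 and 5.17 by age and 4.15 and 21.6 by sex, and each of the endothelial, leukocyte and muscle sums lay between 1.07 and 4.26. The part of these differences in the results below was not tested, and in such bulk values fewer cells of a type cannot be told apart from less RNA per cell.

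The same 5 young female samples entered both tables, which shows how far the estimates of these genes moved with the estimation alone. Relative to the offset of all shared genes, the 2 young female half-lives of a member differed by at most 0.10 on the log2 scale (RARS2), with a median size of 0.0012. The largest shift in synthesis rate was also 0.10 (RARS2). This repeat contains none of the variation between samples.

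In young female cells, RNA of the translation machinery was mostly longer-lived than the median gene. The median half-life was 8.04 h for elongation and termination genes, 6.30 h for cytosolic synthetases, 5.38 h for initiation genes and 4.18 h for mitochondrial synthetases, beside 3.64 h for all genes of the age table. Of the 92 members, 87 had half-lives of 1 to 24 h, the range that 4 h of labelling was taken to resolve. The 4 above it were EIF3K, EEF1G, EEF1A1 and EIF3F, and the 1 below it was MARS2. Values near 69.3 h, where the tables stop, say only that the RNA is very stable.

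**Figure D1:**
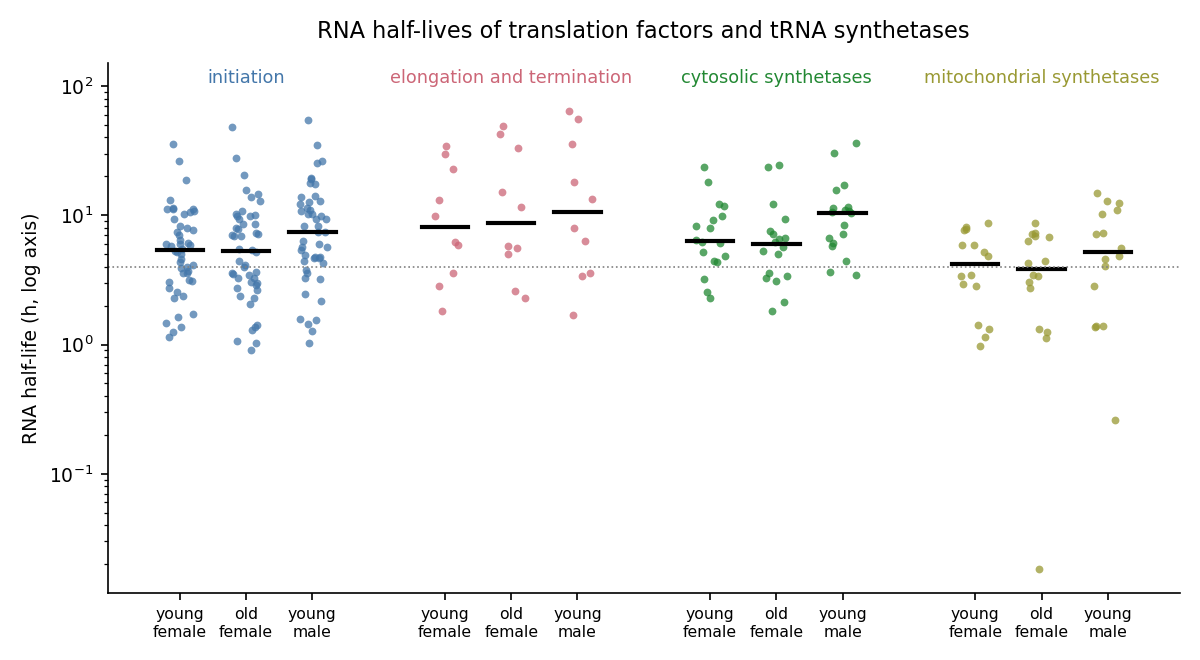
RNA half-life in hours (log axis) of each member, by class, in young female (age table), old female and young male cells; each point is 1 gene, black bars are class medians and the dotted line marks the 4 h of labelling. Elongation and termination genes have the highest class median in each group (8.04, 8.70 and 10.7 h), and MARS2 is the low point of the mitochondrial class.

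Half-lives differed widely between subunits of 1 complex. Within eIF3, the subunit EIF3K had 35.4 h in young female cells, 48.5 h in old cells and 54.3 h in young male cells, while EIF3A, a core subunit, had 2.54, 2.36 and 3.21 h in the same order. EIF3J (3.92 h), EIF3B (5.74 h), EIF3M (7.74 h) and EIF3D (8.00 h) came next, EIF3C, EIF3E and EIF3L had 11.2, 11.3 and 13.2 h, and EIF3F (26.2 h) and EIF3I (18.8 h) were at the stable end. EIF3H was listed in 2 rows with 10.8 and 11.1 h, and whether those rows share reads is not given in the sources used here. Among the genes of eIF2 and its exchange factor eIF2B, RNA was shorter-lived, from 1.37 h for EIF2B1 to 5.27 h for EIF2B5. The eIF2 kinases lay between 1.62 h (EIF2AK3, the endoplasmic reticulum stress kinase PERK) and 3.70 h (EIF2AK1, the heme-regulated kinase).

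The genes around eIF4F spanned 1.26 h for EIF4ENIF1, which carries eIF4E into the nucleus, to 11.3 h for EIF4G3. EIF4E itself had 2.39 h, its binding proteins EIF4EBP1 and EIF4EBP2 had 5.92 and 5.49 h, and the scaffolds EIF4G1 and EIF4G2 had 4.62 and 7.04 h. The cap-binding protein was thus encoded by the shortest-lived RNA of these 5 genes. These subunits of eEF1 were at the stable end: EEF1G had 34.5 h, EEF1A1 30.0 h, EEF1B2 22.6 h and EEF1D 13.1 h. EEF2, the translocase, had 9.88 h, and EEF2KMT, the methyltransferase of eEF2, had 1.81 h, the shortest of the class, whereas the release factor ETF1 had 2.81 h and its partner GSPT1 6.20 h. EEF1A1 has many processed copies in mammalian genomes, and reads shared with them could affect its values.

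Synthetases for different amino acids also differed. In young female cells the cytosolic class ran from 2.29 h for CARS1 and 2.55 h for AARS1 to 18.0 h for KARS1 and 23.8 h for QARS1. In the mitochondrial class the range was 0.969 h for MARS2 to 8.72 h for RARS2. After MARS2, the shortest-lived mitochondrial synthetase was PARS2 (proline, 1.13 h). QARS1 was the longest-lived cytosolic synthetase in all 3 groups. EIF1AD, with 1.15 h in young female, 0.911 h in old and 1.02 h in young male cells, was the shortest-lived initiation gene in all 3.

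The comparison of old with young female cells asked how age affects RNA kinetics. The main difference among these genes was a higher synthesis rate of a group of cytosolic synthetases in old cells. MARS1, which charges methionine tRNA, was synthesised at 423 units in young and 1003 in old cells, a log2 ratio of 1.25. GARS1 (glycine) went from 623 to 1399.8 (1.17), AARS1 (alanine) from 1869.6 to 4198 (1.17) and WARS1 (tryptophan) from 676 to 1453 (1.10). Just under the 2-fold threshold were CARS1 (cysteine, 0.93), IARS1 (isoleucine, 0.92), SARS1 (serine, 0.91) and YARS1 (tyrosine, 0.90). These 8 enzymes serve 8 different amino acids.

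In order of synthesis ratio, YARS1 was followed by NARS1 (asparagine) at 0.49, just under the 0.5 threshold and after a gap of 0.41, and then by 8 genes between 0.23 (QARS1) and 0.02 (LARS1). After a further gap of 0.39, HARS1 (histidine) was the 1 member of the class with a lower rate, 655 in young and 505 in old cells (−0.37). In all, 17 of 18 cytosolic synthetases had a higher rate in old cells, beside 60.2% of all genes, with a class median of 0.36 beside 0.08 for all genes. By threshold, 4 of 18 (22.2%) were at least 2-fold higher, beside 4.59% of all genes, and 8 of 18 (44.4%) were at or above 0.5 on the log2 scale (1.41-fold), beside 14.8% of all genes.

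Half-lives of these 8 genes, picked here by their synthesis ratio, were shorter in old cells for 6, near the share of all genes with shorter half-lives (63.1%). Half-life and synthesis ratios had opposite signs for 75% of the 8 and for 70.8% of all genes. Among the 6 were AARS1, with 2.55 h in young and 1.80 h in old cells, and MARS1, with 9.81 and 7.11 h. GARS1 (11.8 and 12.1 h) and SARS1 (5.21 and 5.64 h) were the 2 that were not shorter. The choice by synthesis ratio also largely fixes the direction of their implied level, which was higher in old cells 2.32-fold for GARS1, 2.04-fold for SARS1, 1.76-fold for CARS1 and 1.42-fold for IARS1, the smallest of them. Across the class 9 of 18 (50.0%) had a level ratio of at least 0.5, beside 8.19% of all genes. The ninth was KARS1 (lysine), which differed by half-life, 18.0 h in young and 23.8 h in old cells, and little by synthesis (0.12).

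**Figure D2:**
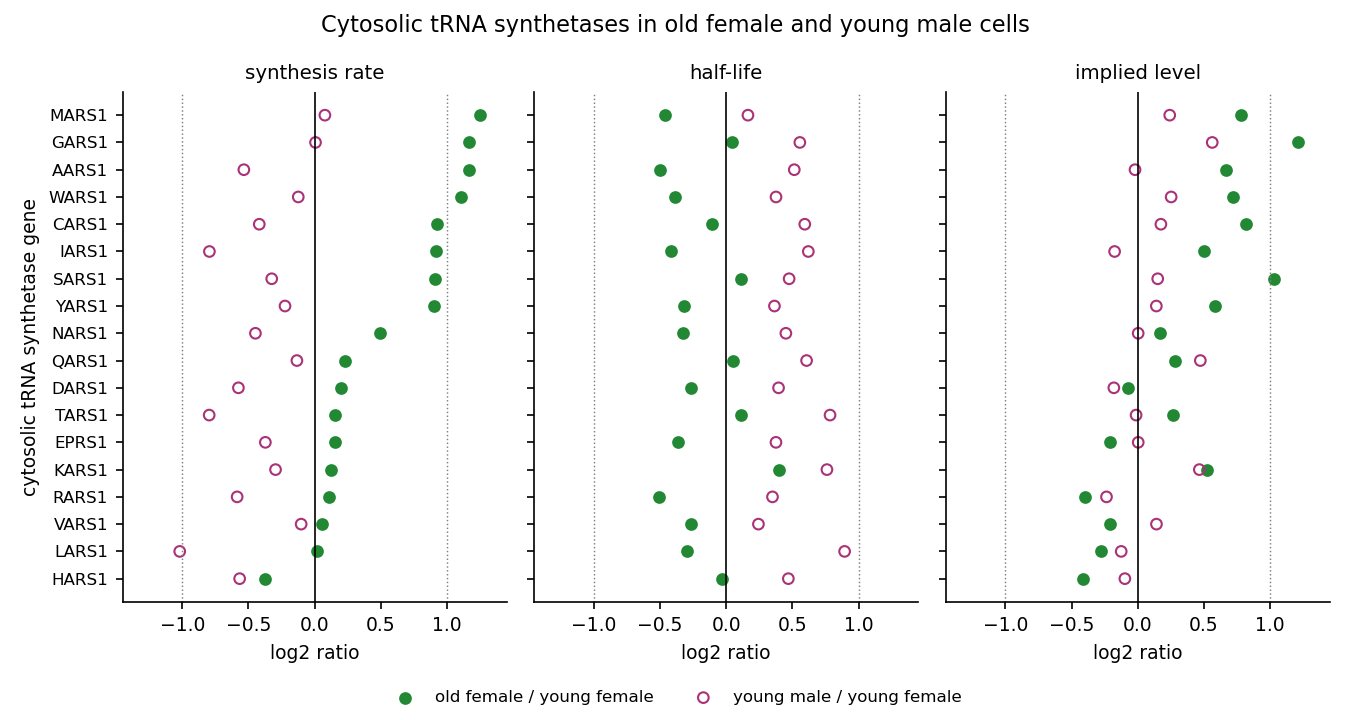
Log2 ratios of synthesis rate, half-life and implied level for the 18 cytosolic synthetases, in old female (filled) and young male cells (open), each over young female cells; dotted lines mark 2-fold. In old cells 8 genes from YARS1 to MARS1 lie between 0.90 and 1.25 in synthesis rate, and in male cells no synthesis ratio lies above 0.08.

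Among the 48 initiation genes, EIF4EBP1 was the 1 gene with a 2-fold difference in old cells, for synthesis rate and for level (2.08%, beside 7.52% of all genes for synthesis rate and 4.12% for level). Its product holds eIF4E away from eIF4G. Its synthesis rate was 789 in young and 1634 in old cells (log2 ratio 1.05), its half-life 5.92 and 6.90 h, and its implied level 2.41-fold higher, the largest level ratio of the 92 members. Its synthesis ratio was 0.97 centred on the median of all genes and 0.99 centred within half-life deciles, each short of 2-fold. EIF4E, the protein it binds, had a rate of 1553 in young and 1187 in old cells and a level 1.35-fold lower (log2 ratio −0.44). EIF4G1 was likewise 1.34-fold lower in level, through a half-life of 4.62 in young and 3.53 h in old cells. The related EIF4EBP2 had a level ratio of −0.23, in the opposite direction to EIF4EBP1.

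Genes activated in the integrated stress response, the pathway downstream of eIF2 phosphorylation, were examined because the cytosolic synthetases are among its known targets. Of 14 genes listed, 13 had values, and 9 of these (beside 4.59% of all genes) were at least 2-fold higher in synthesis rate in old cells. By implied level, 9 of 13 were at or above 0.5 (beside 8.19%) and 11 of 13 above 0 (beside 50.7%), with a median of 0.87. This list was chosen with earlier results of these data known, so its direction is not independent evidence. ASNS, asparagine synthetase, went from a rate of 315 to 1171 and was 2.54-fold higher in level. VLDLR was 2.58-fold, PSAT1, an enzyme of serine synthesis, 2.34-fold and PHGDH, which catalyses the first step of that pathway, 1.93-fold higher in level. CHAC1 and TRIB3 were 3.48- and 2.39-fold higher in level, but their half-lives in old cells, 0.0312 and 0.0223 h, are too short to be resolved, and their split into synthesis and decay is not interpretable. ATF4 itself had a level ratio of 0.37.

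The pattern was not shared by every gene of that list. SLC7A11, the cystine transporter, was 3.19-fold lower in level in old cells, and ATF3 had a level ratio of −0.21. With half-lives restricted to 1 to 24 h in both groups, 9 genes were left, of which 5 were at least 2-fold higher in synthesis rate and 5 at or above 0.5 in level. The shares of all genes given above are without this restriction, so these counts have no like share beside them. Of the 4 eIF2 kinases, 1 had a level ratio by age of at least 0.5 in size (25%, beside 15.6% of all genes). The ratios were 0.16 for EIF2AK1 and −0.05 for EIF2AK4 (GCN2, the sensor of uncharged tRNA). They were −0.24 for EIF2AK3 and −0.56 for EIF2AK2 (PKR, an interferon-induced sensor of double-stranded RNA). The kinases act through their activity, which RNA values do not measure.

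**Figure D3:**
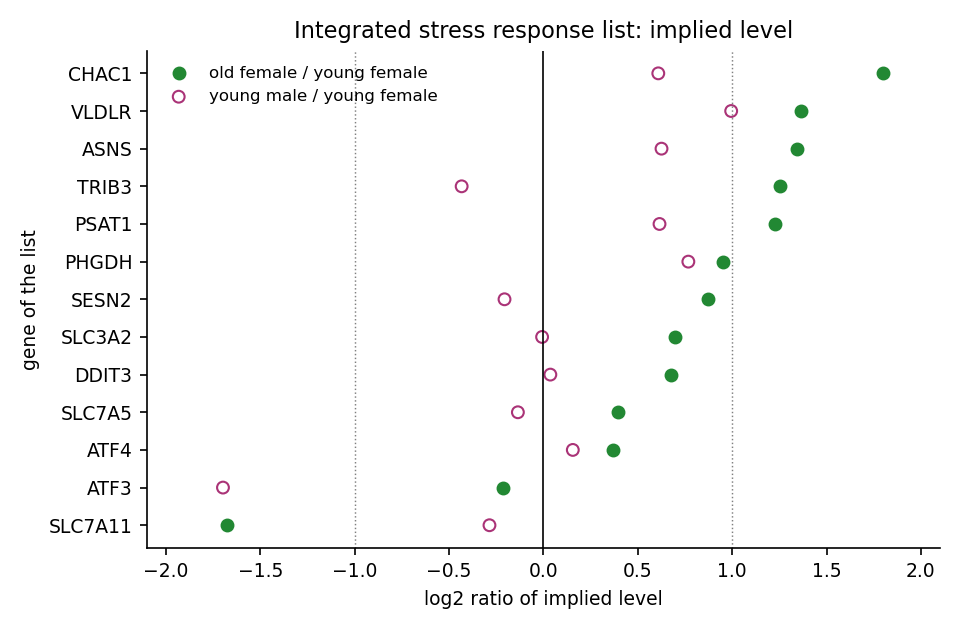
Log2 ratio of implied level for the 13 genes of the integrated stress response list, in old female (filled) and young male cells (open), each over young female cells; dotted lines mark 2-fold. In old cells 11 of 13 genes lie above 0, from 0.37 for ATF4 to 1.80 for CHAC1, and SLC7A11 lies at −1.67.

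The median initiation gene had ratios near 0 between old and young cells. The 48 initiation genes had a median half-life ratio of −0.05, a synthesis ratio of 0.00 and a level ratio of −0.04, and 44 of 48 (91.7%) had a level ratio under 0.5 in size, beside 84.4% of all genes. EIF2S1, the phosphorylated subunit of eIF2, had a level ratio of −0.15, and EIF2B1 to EIF2B5 lay between −0.37 and 0.01. A row named EIF2S3B, by its symbol a gamma subunit of eIF2, was higher in level (0.53). EIF4B, which assists the helicase eIF4A, differed by half-life, 6.13 h in young and 9.42 h in old cells (log2 ratio 0.62, the highest of the members), with a synthesis ratio of −0.03. EIF3B had the lowest synthesis ratio of the class (−0.52) and a longer half-life (0.44), so that its level ratio was −0.08.

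RNA of the elongation factors was longer-lived in old cells. Half-lives in young and old cells were 30.0 and 42.4 h for EEF1A1, 34.5 and 49.1 h for EEF1G, 22.6 and 33.1 h for EEF1B2, 13.1 and 15.1 h for EEF1D, and 9.88 and 11.6 h for EEF2. Among 8 elongation genes the median log2 ratio of half-life was 0.41, beside −0.08 for all genes, and 7 lay above 0, beside 36.5% of all genes, while synthesis rates were lower for 7 of 8, beside 39.8% of all genes. The 2 ratios had opposite signs for 70.8% of all genes, so these 2 counts are not read as separate findings. Implied level was 1.52-fold higher for EEF1A1 and 1.27-fold higher for each of EEF1B2 and EEF1G, and was 0.970-fold for EEF1D and 1.07-fold for EEF2. Half-lives above 24 h are poorly resolved, which touches EEF1A1 and EEF1G in both groups and EEF1B2 in old cells. EEF1E1, a subunit of the multisynthetase complex, had a synthesis rate of 138 in young and 91.3 in old cells and a half-life of 3.57 and 5.02 h, with a level ratio of −0.10. EEF2KMT likewise had a lower synthesis rate, 643 in young and 428 in old cells (−0.59), and a longer half-life (0.33). EEF2K had a level ratio of −0.20, ETF1 0.02 and GSPT1 −0.08.

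**Figure D4:**
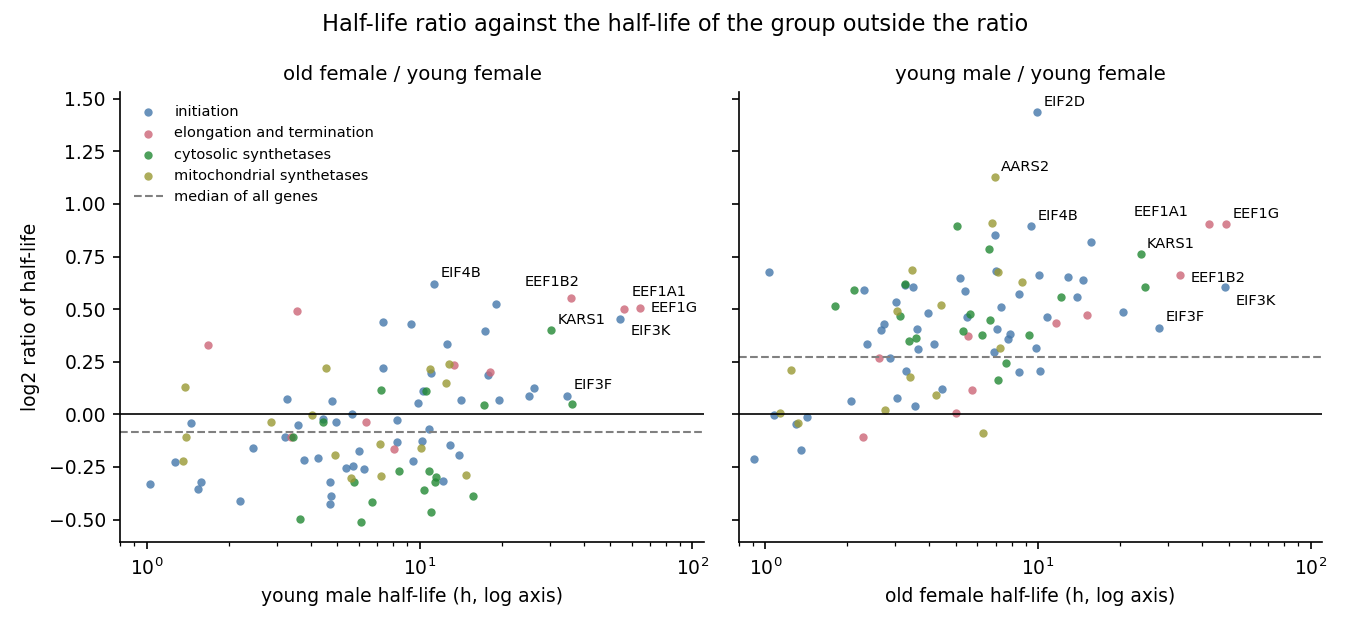
Log2 ratio of half-life against the half-life (h, log axis) of the group that does not enter the ratio, for old over young female (left) and young male over young female cells (right); points are members other than MARS2, coloured by class, and dashed lines are medians of all genes. EEF1A1, EEF1G and EEF1B2 lie between 0.50 and 0.55 in the left panel and between 0.66 and 0.90 in the right panel.

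The helicase paralogues EIF4A1, EIF4A2 and EIF4A3 had level ratios of −0.11, −0.02 and −0.09 in old cells, and the cap-binding relatives EIF4E2 and EIF4E3 −0.09 and 0.02. EIF5, which triggers GTP hydrolysis by eIF2, had a level ratio of −0.36, and EIF5B, which joins the subunits, −0.13. EIF5A, which eases peptide bond formation at stalling sequences, had −0.37 and its paralogue EIF5A2 −0.04, while EIF6, which keeps the large subunit free, had −0.20. For eIF3 the ratios ran from −0.22 for EIF3J to 0.40 for EIF3K, with 9 of 13 above 0, beside 50.7% of all genes.

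Over all 92 members, the counts past a threshold in the age comparison were near or below those of all genes at 2-fold. At least 2-fold differences were seen in 1 member for half-life (1.09%, beside 3.53% of all genes), 6 for synthesis rate (6.52%, beside 7.52%) and 3 for implied level (3.26%, beside 4.12%). Half-lives were longer by at least 0.5 for 5 members (5.43%, beside 4.47% of all genes), which were EIF4B, EEF1B2, EIF3H, EEF1G and EEF1A1, and shorter by that much for 2 (2.17%, beside 8.88%), RARS1 and MARS2. Levels were higher by at least 0.5 for 14 members (15.2%, beside 8.19%), 9 of them cytosolic synthetases. They were lower by that much for 1 member, EIF2AK2 (1.09%, beside 7.37%).

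Mitochondrial synthetases lay close to genes in general in old cells. Their median synthesis ratio was 0.13 (all genes 0.08), with 10 of 16 (62.5%) above 0, beside 60.2% of all genes, and 15 of 16 (93.8%) had a level ratio under 0.5 in size, beside 84.4%. WARS2 had the highest level ratio (0.58; rate 71.5 in young and 91.6 in old cells, half-life 2.96 and 3.45 h) and SARS2 the lowest (−0.38). Counterparts of 7 of the 8 cytosolic genes are listed, and their synthesis ratios were −0.02 for IARS2, 0.10 for YARS2, −0.15 for CARS2, 0.26 for AARS2, −0.37 for SARS2 and 0.36 for WARS2, with MARS2 the seventh. RARS2 (arginine) had the highest synthesis ratio after MARS2 (0.41), with a shorter half-life (−0.29). MARS2 was listed with a half-life of 0.969 h in young and 0.0182 h in old cells and a synthesis ratio of 5.38, while its level ratio was −0.35. Such a half-life cannot be resolved with 4 h of labelling, and its half-life and synthesis ratios are not interpretable; they stay in the counts and medians over the 92 members.

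The comparison of young male with young female cells asked how sex affects RNA kinetics. Half-lives of most of these genes were longer and synthesis rates lower in male cells, as they were for genes in general, and the median level ratio lay near 0. Over the 92 members the median half-life ratio was 0.43 (all genes 0.27), the median synthesis ratio −0.38 (−0.28) and the median level ratio 0.02 (0.01). Half-life was longer in male cells for 83 of 92 members (90.2%, beside 77.3% of all genes), and 36 (39.1%) were longer by at least 0.5, beside 27.4% of all genes. Synthesis was lower by at least 0.5 for 30 (32.6%, beside 32.1%). After centring on the median of genes of like half-life, the median half-life ratio of the members was 0.09, with 55 of 92 above 0, and the median synthesis ratio was −0.15.

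Differences of at least 2-fold by sex were seen in 3 members for half-life (3.26%, beside 7.58% of all genes), 6 for synthesis rate (6.52%, beside 12.2%) and 1 for level (1.09%, beside 4.61%). MARS2 was among them, with ratios of −1.84 for half-life and 1.86 for synthesis rate and a half-life of 0.262 h in male cells, again below the resolved range. EIF2AK2 was the 1 for level: its synthesis rate was 242 in female and 93.9 in male cells (log2 ratio −1.36), its half-life was 2.34 and 2.45 h, and its level 2.46-fold lower. Centred on the median of all genes, its synthesis ratio was −1.09, and centred within half-life deciles it was −0.96, short of 2-fold. EIF2AK3 was 1.70-fold lower in level and EIF2AK4 1.35-fold lower, and EIF2AK1 was 1.10-fold higher.

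Synthesis was lower in male cells for 45 of 48 initiation genes (93.8%, beside 71.1% of all genes), and by at least 0.5 for 20 (41.7%, beside 32.1%). EIF4E was made at 1486 units in female and 687 in male cells (−1.11), with half-lives of 2.39 and 3.59 h and a level 1.44-fold lower. EIF2B1, a regulatory subunit of eIF2B, was made at 299.9 and 128 units (−1.23), with half-lives of 1.37 and 2.19 h and a level 1.47-fold lower. EIF2D, an alternative initiator-tRNA factor, had rates of 148 and 61.6 (−1.27) against half-lives of 9.34 and 25.2 h (1.43) and a level ratio of 0.17; its male half-life lies beyond the resolved range of 1 to 24 h, and restricting to that range removes it from both counts. Relative to the shift of all genes these 3 synthesis ratios were −0.83, −0.95 and −0.99, short of 2-fold, and centred within half-life deciles that of EIF2D was −1.09. EIF4ENIF1 was 1.78-fold lower in level by synthesis alone, its half-life being 1.27 h in both groups. EIF1B, a paralogue of the scanning factor eIF1, was 1.42-fold and EIF1AD, named for its eIF1A-like domain, 1.34-fold lower in level, with slightly shorter half-lives in male cells (−0.17 and −0.21). With EEF2KMT (−0.11) these were the 3 lowest half-life ratios among resolved members.

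EIF4EBP1 had a higher synthesis rate in male cells, unlike most members. Its synthesis rate was 744 in female and 999 in male cells (0.43), the highest ratio of the class, its half-life 5.99 and 7.37 h, and its level 1.65-fold higher. All 13 eIF3 rows had longer half-lives in male cells (beside 77.3% of all genes), from 0.32 for EIF3C to 0.82 for EIF3H, and 12 of 13 had lower synthesis (beside 71.1%). Their median half-life ratio was 0.56. After centring within half-life deciles it was 0.10, with 9 of 13 above 0. The median level ratio of the 13 rows was 0.22, and −0.08 after that centring. The direction of the median level ratio thus depends on the centring. EIF4B again had a longer half-life, 6.08 h in female and 11.3 h in male cells (0.90).

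Levels were higher in male cells for 7 of 8 elongation genes, beside 50.5% of all genes. EEF2 was made at 9335 units in female and 10316 in male cells, with half-lives of 9.87 and 13.3 h and a level 1.49-fold higher. EEF1A1 was 1.61-fold, EEF1G 1.46-fold, EEF1B2 1.36-fold and EEF1D 1.33-fold higher in level, each with a longer half-life and a slightly lower synthesis rate. EEF2K had a level ratio of 0.23 and EEF1E1 0.20, and EEF2KMT was the 1 that was lower (−0.33). The male half-lives of EEF1A1 (56.0 h), EEF1G (64.6 h) and EEF1B2 (35.9 h) lay beyond the resolved range, the second close to where the table stops. Centred within half-life deciles, the level ratios were 0.28 for EEF2, 0.26 for EEF1A1, 0.12 for EEF1G, 0.02 for EEF1B2 and 0.11 for EEF1D. Over all members 16 (17.4%) had a level ratio of at least 0.5 in size, beside 25.0% of all genes, and 9 (9.78%) were higher by that much, beside 13.0%.

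Synthesis of the cytosolic synthetases was lower in male than in female cells for 16 of 18, beside 71.1% of all genes, and half-lives were longer for all 18, beside 77.3%. Half-life ratios ran from 0.16 for MARS1 to 0.89 for LARS1, and the exceptions in synthesis were MARS1 (0.08) and GARS1 (0.01). For the 8 genes with higher synthesis in old cells, the median male synthesis ratio was −0.27, and 0.00 relative to all genes. For the other 10 it was −0.51, and −0.23 relative to all genes. LARS1 (leucine) had the lowest rate ratio, 495 in female and 244 in male cells (−1.02, or −0.74 centred on the median of all genes, short of 2-fold), against half-lives of 6.18 and 11.5 h, and a level ratio of −0.12. GARS1 had the highest level ratio of the class (0.56), with half-lives of 11.7 h in female and 17.3 h in male cells. Both comparisons use the same young female samples, so a low young female estimate raises both ratios of a gene. Because the 8 genes were picked by their age ratio, no conclusion is drawn from their contrast with the other 10. Whether the age and sex ratios differ was not tested.

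Among mitochondrial synthetases, AARS2 had the highest half-life ratio in male cells, with 5.89 h in female and 12.9 h in male cells (1.13), and a level 1.66-fold higher. The half-life ratio was 0.85 centred on the median of all genes and 0.74 centred within half-life deciles, each short of 2-fold. FARS2 (phenylalanine) went from 5.83 to 10.9 h, with a lower synthesis rate (−0.60) and a level ratio of 0.31. SARS2 had a higher synthesis rate, 150 in female and 198 in male cells, and a level ratio of 0.58, TARS2 (threonine) likewise 160 and 202 units with a ratio of 0.25, and HARS2 a level 1.56-fold lower. The class was mixed, with 9 of 16 level ratios above 0 (beside 50.5% of all genes) and a median of 0.11.

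Among related genes outside the name rule, FARSB had a synthesis ratio of 0.52 in old cells, FARSA 0.06, AIMP1 −0.27 and AIMP2 0.24, the last 2 being scaffolds of the multisynthetase complex. Of 14 genes of translation regulation with values, such as the poly(A)-binding protein PABPC1 and the translation repressor PDCD4, none had a level ratio of 0.5 or more in size in either comparison, beside 15.6% of all genes by age and 25.0% by sex. GSPT2, a paralogue of GSPT1, was the 1 gene of that list past 2-fold in kinetics by age, but its half-lives were under 1 h in both groups and its ratios are not interpretable. In male cells MCTS1 had a half-life ratio of 1.17 and a synthesis ratio of −1.13, and ABCE1, the ribosome recycling factor, a synthesis ratio of −1.16. Relative to the median of all genes these were 0.89, −0.85 and −0.88, each short of 2-fold. Of 12 mitochondrial translation genes, among them the elongation factor TUFM, none had a level ratio of that size in old cells and 2 had in male cells, MTRF1 (−0.69) and GATB (−0.85). Half-lives of 3 of the 12 (25%, beside 8.88% of all genes) were shorter by at least 0.5 in old cells: MTFMT (−0.77), MTRF1 (−0.68) and MTRFR (−0.54), with synthesis ratios of 0.93, 0.71 and 0.39. In male cells QRSL1 had a synthesis ratio of −1.07, or −0.79 centred on the median of all genes, short of 2-fold. In male cells the stress response list had a median level ratio of 0.04, with 5 of 13 (38.5%, beside 13.0% of all genes) at or above 0.5 and ATF3 at −1.70. ASNS was 1.54-fold and VLDLR 1.99-fold higher there, and TRIB3 had a level ratio of −0.43.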

How the data were processed

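The data are the authors' 2 deposited tables of RNA kinetics from 4sU-labelled horse chondrocytes, with a synthesis rate and a half-life per gene and group, per the file headers. RNA was alkylated for 15 min, poly(A)-selected and sequenced in stranded libraries, per the labels' protocols. The submitters' processing notes name cutadapt 4.5, STAR 2.5.3 and the build EquCab3.0; the kinetic model, the gene filter and the way samples were combined are not given in the sources used here. Genome coordinates and sequences were not used here.

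The group headed "Young" was read as young female, since the labels assign those samples to both tables. Log2 ratios of old over young female and of young male over young female were computed within 1 table with pandas 2.3.3 and NumPy 2.4.6 in Python 3.11.15, for both quantities and for the implied level, which assumes constant RNA levels during labelling. No pseudocount or filter was used. A difference counted as 2-fold at an absolute log2 ratio of 1, and 0.5 was the lower threshold. The tables hold 0 columns of values per sample, so no test was made and depth is unknown. Ratios and counts were tested on made-up tables with known answers.

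Members, classes and lists were chosen with earlier results of these data known. Named in the text are, per comparison and quantity, the 3 largest rises and falls among members with half-lives of 1 to 24 h, members past 2-fold, the longest- and shortest-lived gene of each class in young female cells, and genes standing for the main steps; other genes come from 4 lists of related genes and 6 marker lists, and were named after their values were seen where they are not past 2-fold.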

Additional observations from a re-analysis of the deposited data

How the results depend on the processing

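No paired analysis was possible because the tables hold 1 value per group and no values per sample; leaving out a sample was not possible for the same reason. Of the counts and medians over all members, 63 stayed within 1.5 times (counts) or 0.1 (medians) of the reported value under an alternative, and 15 did not. Of the remaining values compared in this way, 746 stayed within these limits and 127 did not. At a threshold of 0.5, the age comparison had 7 members for half-life, 13 for synthesis and 15 for level; the sex comparison had 37, 31 and 16. Restricted to resolved half-lives (1 to 24 h), 0 members passed 2-fold for half-life by age and 1 by sex (AARS2, whose ratio was 0.85 and 0.74 under the centrings below). Without MARS2, an alternative chosen after seeing the data, the age count for half-life was also 0. In the sex comparison, centring on the median of all genes gave medians of 0.16 for half-life and −0.10 for synthesis rate, and centring within half-life deciles gave 0.086 and −0.15. Each centring left 2 members past 2-fold for synthesis rate by sex: EIF2AK2 and MARS2 with the first, EIF2D and MARS2 with the second. The 8 cytosolic synthetases with higher synthesis in old cells had ratios of 0.84 (CARS1) to 1.19 (MARS1) after centring within deciles. Taking the young female estimates from the second table, or the upper 75% of genes by synthesis rate, moved none of the counts or medians over all members past the limits. Depth is unknown, and half-lives under 1 h or above 24 h are limited by the labelling time.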
